A study of Homo sapiens with 4 samples.

Results

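RNA polymerase II (RNAPII) is the enzyme that transcribes protein-coding genes, and the genes described here encode the enzyme itself, Mediator and the general transcription factors. They were all protein-coding genes of GENCODE release 44 (GRCh38) whose symbol is POLR2 plus a letter, MED plus a number, TAF plus a number, or begins with GTF2. This rule took 73 of 20046 protein-coding genes, on 21 chromosomes: 13 RNAPII subunit genes, 28 Mediator genes, 13 TFIID genes, TAF15, 14 genes of the factors TFIIA to TFIIH and 4 genes of the TFII-I family. Their values are the DNA loops listed by POLR2A HiChIP-seq, which ligates DNA that lies close together in intact nuclei and then pulls down the pieces bound by POLR2A, the largest RNAPII subunit. A loop was assigned to a gene when the 1 kb around any annotated start site of the gene touched an anchor, and its strength is its count of paired-end tags (PETs).

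The cells were HepG2, an established human hepatocellular carcinoma line. They were treated for 24 h with sterilized water (Mock) or with 20 µM pyridostatin (PDS), a small molecule that binds DNA guanine quadruplexes (G4s). Each condition had 2 biological replicates, 4 libraries in all, and the replicates had been combined into 1 loop list per condition. No spread between replicates could therefore be measured, no test between conditions was possible, and every interval below is a 95% Wilson interval that covers counting error only.

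At a promoter, TFIID recognizes the core sequence and is joined by TFIIA and TFIIB, which set the place where RNAPII lands together with TFIIF. TFIIE and TFIIH then complete the complex and open the DNA. Mediator bridges this complex and the activators bound at enhancers, through a head and a middle module that contact RNAPII, a tail that contacts activators, and a kinase module that joins reversibly.

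In total, 66417 loops (254647 PETs) were listed for mock-treated cells and 18778 loops (67001 PETs) for PDS-treated cells. The lowest count in both lists was 3 PETs, at which 59.9% of mock loops and 71.1% of PDS loops stood, so a loop missing from a list may have had up to 2 PETs. Library depth is unknown here, since the PET sums cover listed loops only. Of 7 hepatocyte marker genes, 6 had a mock promoter loop (165 PETs in all, 0 to 64 per gene, APOA1 at 0). Of 5 genes of other lineages, 2 had one (24 PETs, 0 to 15 per gene), COL1A1 with 15 PETs and CD3E with 9, while PTPRC, GATA1 and HBG1 were at 0. COL1A1 thus lay above the hepatocyte markers APOB (10 PETs), SERPINA1 (7), TTR (5) and APOA1, and below ALB (64), HNF4A (52) and AFP (27).

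The promoters of the transcription machinery lost most of their listed loops after PDS treatment, close to the loss at promoters in general or somewhat beyond it. At these genes, 150 loops (573 PETs) were listed for mock-treated cells and 26 loops (90 PETs) for PDS-treated cells. The PDS/mock ratio was 0.173 for loops (interval 0.115 to 0.262) and 0.157 for PETs (0.126 to 0.196). For promoter loops of all other protein-coding genes, the ratio was 0.255 for loops (0.249 to 0.261) and 0.228 for PETs (0.225 to 0.231). Counted over all pairs of a protein-coding gene and a loop at its promoter, it was 0.2465 for loops and 0.2198 for PETs, closer to the gene set. Over all 66417 mock and 18778 PDS loops, the ratio was 0.283. The interval of the loop ratio of these genes thus contains the ratio of other promoters, and the interval of the PET ratio does not. PETs come in loops of 3 or more and are not independent counts, so the PET interval is too narrow. Loops of a gene can share an anchor, as all those of POLR2L do, so the loop interval may be too narrow as well.

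Of the 73 genes, 44 had a promoter loop in the mock list (60.3%, interval 48.8 to 70.7%), and 59.8% of all protein-coding genes had one. In the PDS list 17 had a loop (23.3%, 15.1 to 34.2%), beside 28.7% of all protein-coding genes. Of the 44 genes with a mock loop, 27 had none in the PDS list (61.4%, 46.6 to 74.3%), beside 56.4% of all genes with a mock loop. PETs were lower in the PDS list for 43 of the 44 genes and higher for 1, MED13 (2.28% of all genes with a mock loop were higher). None of the 29 genes without a mock loop had a PDS loop (interval up to 11.7%), where 6.46% of such genes had one in all. All these shares of the gene set lie within the counting error of the background. Of the 150 mock and 26 PDS loops, 100 and 16 lay at a canonical start site, the rest at other annotated start sites. At GTF2F2, GTF2I and MED24, 2 of 10, 1 of 6 and 2 of 7 mock loops lay at the canonical start site. At POLR2F, MED9 and MED13, none did.

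Among genes with at least 10 mock PETs, 21 of 21 were at least 2-fold lower after PDS, as were 92.7% of all protein-coding genes with that many PETs. With a limit of at least 4-fold lower, the count was 14 of 21 (66.7%), beside 66.2% of all genes. When PETs were divided by the sum of their list, 9 of 21 were at least 2-fold lower, beside 43.5% of all genes. This scaling sets the sums of the lists equal but leaves the minimum of 3 PETs in both. A loop under that minimum still counts as absent, so all these fold counts can overstate a drop. The median gene with a mock loop had 2 loops and 9 PETs in this set, the same as the median of other protein-coding genes. At least 10 PETs were listed for 21 of the 44 (47.7%), beside 45.2% of all genes with a mock loop, and 12 of the 44 had no mock loop above 3 PETs (27.3%), beside 34.4%.

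**Figure D1:**
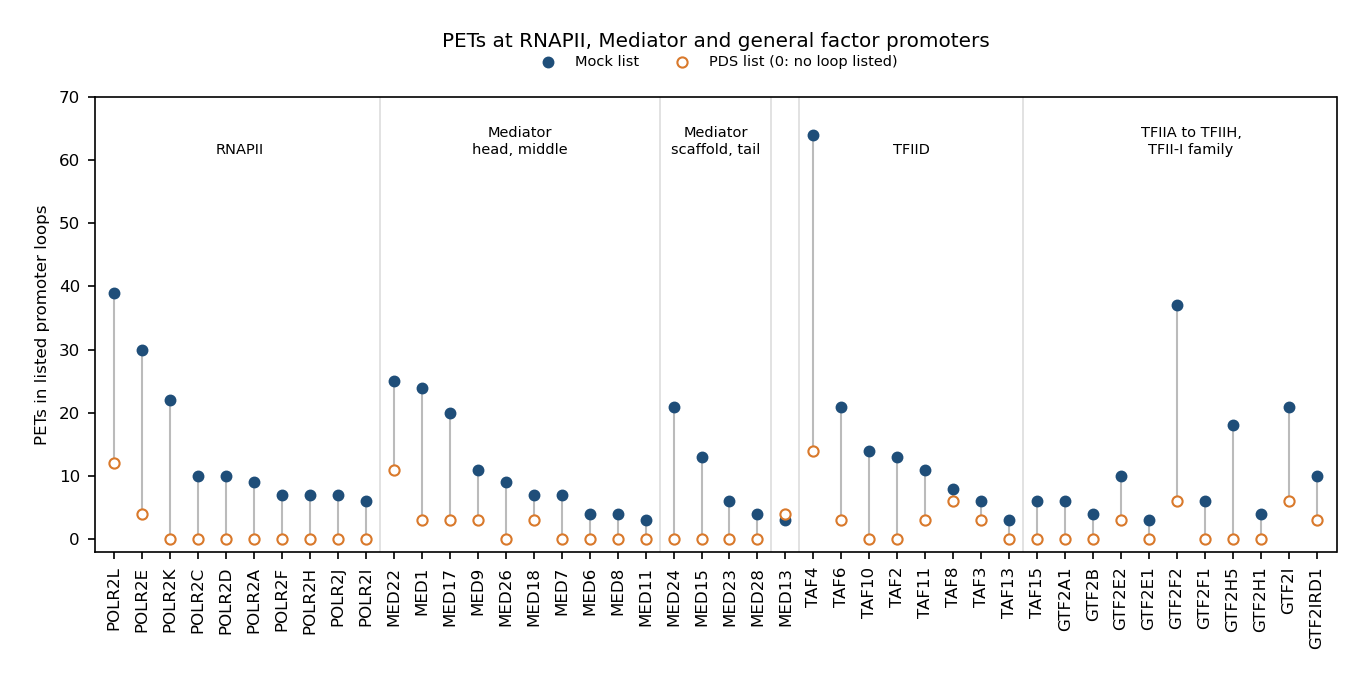
PETs in listed promoter loops (vertical axis) of each of the 44 genes with a loop, grouped by complex, with filled points for the mock list and open points for the PDS list. TAF4 stood highest in both lists (64 and 14 PETs), 27 genes dropped to 0, and MED13 alone had more PETs after PDS (3 and 4).

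The 20 genes with the most PETs over both lists held 109 of the 150 mock loops, 432 of the 573 mock PETs and 23 of the 26 PDS loops. Their promoters, and those of their partners, differ in sequence, and 5 of them are shown because strong loops, or the gene that encodes the immunoprecipitated protein, start there. Each runs from 250 bases before to 50 bases after the start site in RefSeq (GRCh38.p14), in the direction of transcription. Capitals mark a predicted G4 motif, 4 runs of 3 or more G, 1 to 7 bases apart, on either strand (runs of C where the G lies on the other strand), and in MED1 the letters AAGATGGCG of the motif of YY1, a zinc-finger factor. The bases between runs may themselves be G or C, so a long run can count as more than 1, as it does in GPX4. All motif counts below use this rule.

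POLR2E, chr19:1095326-1095625, minus strand: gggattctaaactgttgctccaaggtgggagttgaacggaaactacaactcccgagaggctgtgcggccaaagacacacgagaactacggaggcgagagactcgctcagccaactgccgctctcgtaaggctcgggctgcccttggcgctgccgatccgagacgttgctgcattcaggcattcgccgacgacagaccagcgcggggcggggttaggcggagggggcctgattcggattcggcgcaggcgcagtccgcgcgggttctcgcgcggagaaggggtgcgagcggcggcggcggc

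GPX4, chr19:1103744-1104043, plus strand: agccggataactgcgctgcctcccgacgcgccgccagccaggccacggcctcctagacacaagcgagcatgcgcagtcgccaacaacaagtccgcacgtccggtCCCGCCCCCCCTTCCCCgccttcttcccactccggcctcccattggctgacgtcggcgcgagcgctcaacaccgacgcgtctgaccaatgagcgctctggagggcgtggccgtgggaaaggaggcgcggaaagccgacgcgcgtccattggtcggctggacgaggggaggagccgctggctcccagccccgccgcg

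MED1, chr17:39451214-39451513, minus strand: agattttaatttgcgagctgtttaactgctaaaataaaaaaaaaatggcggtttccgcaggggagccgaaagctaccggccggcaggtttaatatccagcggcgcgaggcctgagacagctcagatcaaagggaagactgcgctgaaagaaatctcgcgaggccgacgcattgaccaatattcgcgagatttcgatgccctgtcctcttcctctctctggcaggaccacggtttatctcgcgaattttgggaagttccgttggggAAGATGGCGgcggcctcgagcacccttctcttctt

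TAF4, chr20:62065832-62066131, minus strand: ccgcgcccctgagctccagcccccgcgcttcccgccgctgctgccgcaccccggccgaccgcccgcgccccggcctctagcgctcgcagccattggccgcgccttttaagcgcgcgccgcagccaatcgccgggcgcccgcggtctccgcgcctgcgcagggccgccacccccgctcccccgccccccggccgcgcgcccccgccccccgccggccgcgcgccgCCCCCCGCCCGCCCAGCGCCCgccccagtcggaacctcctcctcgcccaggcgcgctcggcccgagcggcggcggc

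POLR2A, chr17:7484116-7484415, plus strand: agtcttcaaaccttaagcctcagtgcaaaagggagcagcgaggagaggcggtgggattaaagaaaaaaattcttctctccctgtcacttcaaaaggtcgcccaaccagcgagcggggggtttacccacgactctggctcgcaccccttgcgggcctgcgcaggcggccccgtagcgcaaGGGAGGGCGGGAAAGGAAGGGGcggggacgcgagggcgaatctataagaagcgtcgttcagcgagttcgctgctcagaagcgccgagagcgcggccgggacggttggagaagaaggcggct

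The POLR2E and MED1 windows hold no G4 motif, while GPX4, TAF4 and POLR2A hold 1 each. Counted from 0 at the start site, the POLR2A motif covers positions -71 to -50 and the TAF4 motif -26 to -6. GC content was 52.0% in the MED1 window, 61.3% in POLR2A, 65.7% in POLR2E, 70.7% in GPX4 and 85.0% in TAF4.

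The RNAPII subunit genes had 36 mock loops (147 PETs) and 5 PDS loops (16 PETs), a loop ratio of 0.139 (0.0562 to 0.343). Mock loops were listed at 10 of the 13 genes and PDS loops at 2, beside 59.8% and 28.7% of all protein-coding genes. The 5 subunits that RNAPII shares with RNA polymerases I and III (POLR2E, POLR2F, POLR2H, POLR2K and POLR2L) had 25 mock loops and all 5 of the PDS loops. The 8 other genes had 11 mock loops with 42 PETs and no PDS loop (upper bound of the ratio 0.349). The interval of the shared subunits, 0.0792 to 0.505 around a ratio of 0.200, overlaps that range, so the counts do not separate the 2 groups of subunits.

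POLR2A (ENSG00000181222, chr17:7484366-7514616, plus strand) encodes the catalytic subunit that the antibody of the assay recognizes. Its mock loops numbered 3, each with 3 PETs, and the PDS list held none. One joined the promoter anchor (chr17:7481281-7485796, which also holds start sites of ZBTB4 and SLC35G6) to an anchor 10.0 kb into the gene, where other POLR2A transcripts start. Another joined the promoter anchor to a further ZBTB4 promoter 6.32 kb away, and the last ran from the internal start sites to a site 125 kb away. At 3 PETs, these loops were at the lowest level the list holds, so their absence after PDS corresponds to a difference of at least 1 PET each.

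POLR2E encodes a small subunit common to the 3 nuclear polymerases, and its promoter formed the strongest loop of the whole gene set. The anchor chr19:1092962-1099530, around the POLR2E start, and the anchor chr19:1101316-1108693, around the start of GPX4, a glutathione peroxidase that removes lipid peroxides, were joined by 11 PETs in the mock list and 4 in the PDS list across 8.76 kb. The 6 other mock loops of POLR2E had 3 or 4 PETs and were absent after PDS. They reached the promoters of ABCA7, ARHGAP45 and SBNO2 and sites 88.6 and 502 kb away. In all, POLR2E had 7 loops with 30 PETs in the mock list and 1 loop with 4 PETs in the PDS list.

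POLR2L, another common subunit, had 8 mock loops (39 PETs) and 4 PDS loops (12 PETs), the most PDS loops of any gene of the set. All of them used 1 wide anchor, chr11:824841-872292, that also holds start sites of CD151, CHID1, CRACR2B and TSPAN4, so the loops cannot be assigned to POLR2L alone. Its strongest mock loops, to the PNPLA2 promoter 28.0 kb away and the MUC6 promoter 187 kb away, had 7 PETs each and were absent after PDS. A loop to a site 208 kb away had 6 PETs in the mock list and 3 in the PDS list, and one to a site 104 kb away had 4 and 3. The 2 other PDS loops, both to promoters of AP2A2, had 3 PETs and no counterpart in the mock list.

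POLR2K, also a common subunit, had 6 mock loops with 22 PETs, 2 of them with 5 PETs, from an anchor that also holds start sites of SPAG1 and FBXO43, and no PDS loop. POLR2C and POLR2D, subunits of the assembly platform and the stalk, had 3 mock loops with 10 PETs each and none after PDS. POLR2H and POLR2F had 2 mock loops with 7 PETs, and POLR2I had 1 loop with 6 PETs, to TBCB 5.03 kb away, none of which was in the PDS list. Neither POLR2F loop lay at its canonical start site. The 7-PET mock loop of POLR2J joined it to POLR2J3, a near-identical copy 93.5 kb away. Of the 31-base sequences in its anchors, 88.4% and 90.7% have a further copy in the genome, so reads of the copies may not be told apart there and the loop is uncertain. Whether they could be at the length of the reads was not tested.

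The Mediator genes had 43 mock loops (161 PETs) and 7 PDS loops (27 PETs), a loop ratio of 0.163 (0.0747 to 0.355). The head and middle modules had 29 mock and 6 PDS loops, a ratio of 0.207 (0.0882 to 0.486). Their mock loops lay at 10 of 16 genes and their PDS loops at 5, beside 59.8% and 28.7% of all protein-coding genes. The scaffold and tail genes had 13 mock loops with 44 PETs and no PDS loop (upper bound of the ratio 0.296), with mock loops at 4 of 10 genes. These intervals overlap, so the modules were not separated by these counts.

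MED1 encodes the middle-module subunit through which nuclear receptors contact Mediator. Its strongest mock loop joined the MED1 anchor chr17:39449146-39454904 to the anchor chr17:39460602-39466898 at the promoter of CDK12, a kinase of the RNAPII carboxy-terminal domain, with 9 PETs across 11.7 kb, and was absent from the PDS list. Between the same genes, a second loop to an anchor 17.9 kb away had 3 PETs in both lists. The 3 other mock loops, with 5, 4 and 3 PETs, were absent after PDS. MED1 thus had 5 mock loops (24 PETs) and 1 PDS loop (3 PETs). In the anchors of the 9-PET loop, 27.8% and 22.6% of 31-base sequences have a further copy in the genome, above the median of 14.6% over the 218 anchors of this gene set.

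MED22, a head subunit, kept the largest share of its signal among genes with at least 10 mock PETs, with 25 PETs in 6 mock loops and 11 PETs in 2 PDS loops. Its anchor chr9:133344784-133365152 covers the surfeit cluster and also holds start sites of RPL7A, SURF1, SURF2 and SURF4. The loop from there to the STKLD1 and SURF4 promoters 32.5 kb away had 8 PETs in the mock list and 6 in the PDS list, the highest PDS count in the gene set. The loop to the SURF6 promoter 18.8 kb away had 3 PETs in the mock list and 5 in the PDS list. The 4 remaining mock loops, with 5, 3, 3 and 3 PETs, were absent after PDS.

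MED17, a core head subunit, had 6 mock loops (20 PETs) and 1 PDS loop (3 PETs) that joined internal start sites and was absent from the mock list. MED24, a tail subunit, had 7 mock loops that each had 3 PETs, to CASC3, RAPGEFL1, THRA and TOP2A among others, and none after PDS. MED15, a tail subunit that binds activators, had 3 mock loops with 13 PETs and none after PDS. MED9 had 2 mock loops with 11 PETs, of which the loop to the PEMT and RASD1 promoters went from 5 to 3 PETs and the 6-PET loop was absent. Neither lay at its canonical start site. MED13, which links the kinase module to the core, was the exception: its mock loop had 3 PETs and its PDS loop 4 PETs, at the same internal start sites but to different partners within the gene. These counts of 3 and 4 differ by less than counting error. The PDS list also held a 3-PET loop from MED18 to FAM76A across 583 kb, the longest in the gene set, beside 7 PETs in 2 mock loops. Of the rest, MED26 had 9 mock PETs, MED7 had 7, MED23 had 6, MED6, MED8 and MED28 had 4 each and MED11 had 3, with no PDS loop at any of these.

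**Figure D2:**
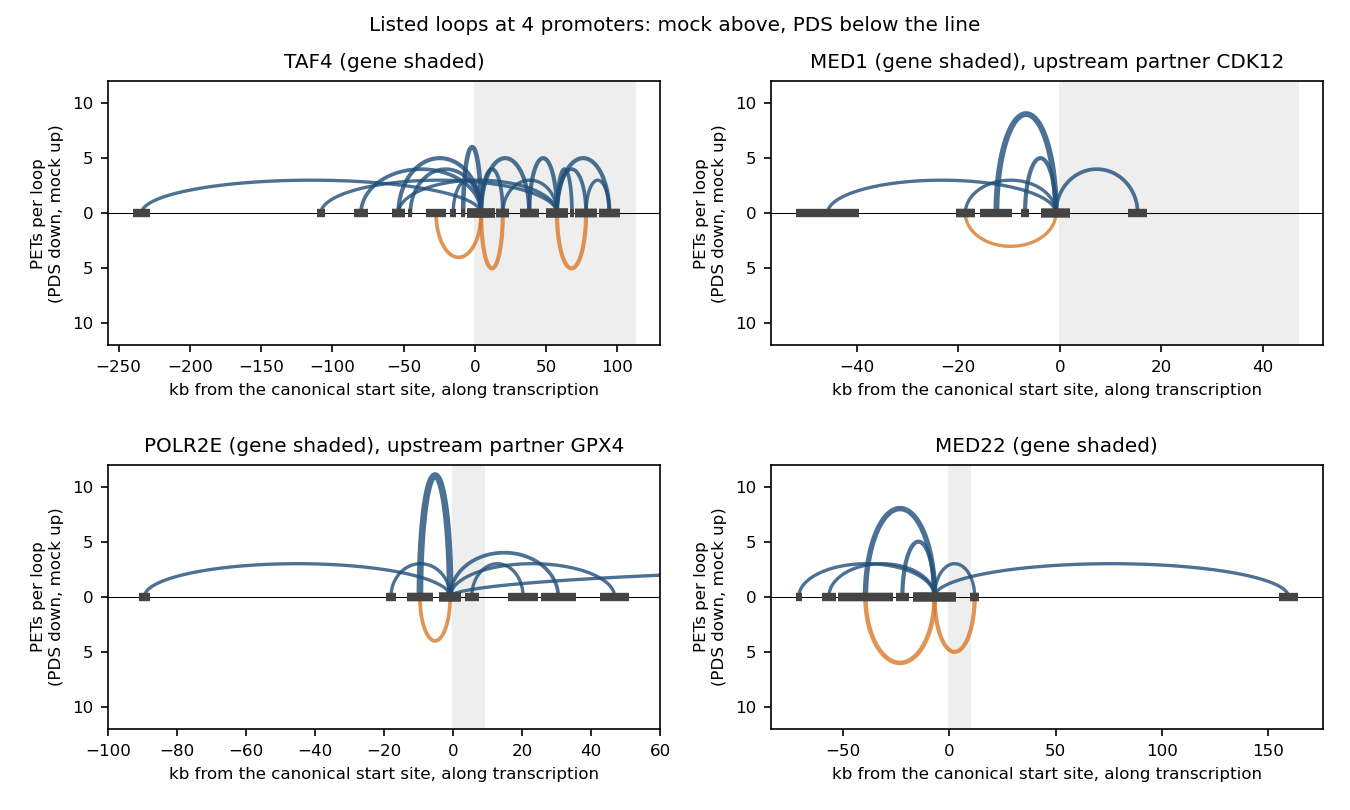
Loops listed at TAF4, MED1, POLR2E and MED22, by distance in kb from the canonical start site (horizontal axis) and PETs per loop (height of the arc), mock above and PDS below the line, with anchors as dark bars and the gene shaded. The 11-PET loop of POLR2E to GPX4 was 4 PETs after PDS, the 9-PET loop of MED1 to CDK12 was absent, and 1 POLR2E mock loop of 502 kb runs past the edge.

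The TFIID genes had 35 mock loops (140 PETs) and 8 PDS loops (29 PETs), a loop ratio of 0.229 (0.108 to 0.484). Of the 8 genes with a mock loop, 5 had a PDS loop and 3 had none, beside 56.4% with none among all genes with a mock loop. TAF4 (ENSG00000130699, chr20:61953469-62065881, minus strand), a subunit that helps hold TFIID together, had the most loops of any gene of the set in the mock list, 16 with 64 PETs, and 3 with 14 PETs in the PDS list. Within the gene, which spans 112 kb, lay both anchors of 8 of the mock loops. The strongest of all 16 loops, with 6 PETs, joined the promoter anchor to a site outside the gene, 12.6 kb away, and was absent after PDS. Loops to the promoters of LSM14B (5 PETs, 58.0 kb), of PSMA7 and SS18L1 (4 PETs, 84.3 kb) and of ADRM1 (3 PETs, 238 kb) were absent as well. In contrast, 2 loops inside the gene, across 15.2 and 20.4 kb, had 4 PETs each in the mock list and 5 each in the PDS list. Counting the canonical start site alone, TAF4 had 8 mock loops (34 PETs) and 2 PDS loops (9 PETs).

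TAF6, a histone-fold subunit, had 5 mock loops (21 PETs) and 1 PDS loop (3 PETs). Its strongest loop joined the TAF6 and CNPY4 promoters to those of MCM7, a subunit of the replicative helicase, and AP4M1 across 16.4 kb, with 8 mock PETs and none listed after PDS. TAF10 had 3 mock loops with 14 PETs, from an anchor that also holds ILK and TPP1, and TAF2 had 4 with 13 PETs, and neither had a PDS loop. TAF11 had 2 mock loops with 6 and 5 PETs, of which the second had 3 PETs in the PDS list. TAF8, from an anchor shared with CCND3, had 8 mock PETs and 6 PDS PETs in 2 loops each, and 1 of these loops was common to both lists (4 and 3 PETs). TAF3 had 6 mock PETs in 2 loops and 3 PDS PETs in another loop, and TAF13 had 3 mock PETs and no PDS loop.

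The general factors TFIIA to TFIIH had 25 mock loops (88 PETs) and 3 PDS loops (9 PETs), a loop ratio of 0.120 (0.0386 to 0.374), and 0 of the 25 mock loops were in the PDS list (interval up to 13.3%, which contains the 11.0% of all mock promoter loops). GTF2F2, which encodes the small subunit of TFIIF, accounted for 10 mock loops (37 PETs) and 2 PDS loops (6 PETs). Only 2 of these mock loops (11 PETs) lay at its canonical start site. The strongest ran from its canonical promoter 13.1 kb into the gene, with 8 mock PETs and none listed after PDS, and both PDS loops started from internal start sites and were absent from the mock list. GTF2H5, the smallest TFIIH subunit, had 5 mock loops with 18 PETs from an anchor shared with SERAC1, and no PDS loop. GTF2E2, the beta subunit of TFIIE, had 3 mock loops (10 PETs) and 1 PDS loop (3 PETs). TFIIB itself, encoded by GTF2B, had 1 mock loop with 4 PETs and none after PDS, and the same was true of GTF2H1 of TFIIH. GTF2F1, the large subunit of TFIIF, and GTF2A1 of TFIIA had 2 mock loops with 3 PETs each, and GTF2E1 of TFIIE had 1 with 3 PETs, with no PDS loop at any of them.

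The TFII-I family, named for its founding initiator-binding factor and not part of the initiation complex, had 9 mock loops (31 PETs) and 3 PDS loops (9 PETs). GTF2I had 6 mock loops (21 PETs) and 2 PDS loops (6 PETs), none in common, in a region with near-identical copies nearby. GTF2IRD1 had 3 mock loops with 10 PETs, of which 1 had 3 PETs in both lists. TAF15, an RNA-binding protein that associates with TFIID, had 2 mock loops with 3 PETs each and no PDS loop.

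**Figure D3:**
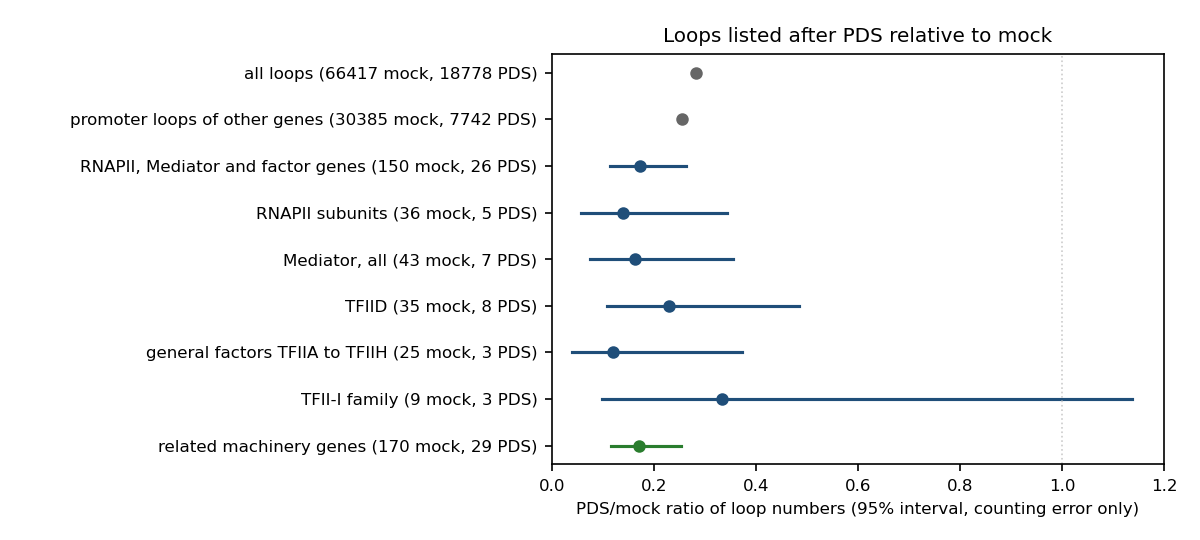
PDS/mock ratio of loop numbers (horizontal axis, dotted line at 1) for all loops, promoter loops of other genes, the gene set, its complexes and a list of related machinery genes, with 95% intervals for counting error. The points of RNAPII, Mediator, TFIID and the general factors lie between 0.120 and 0.229 with overlapping intervals.

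No loop was listed in either condition at 29 of the 73 genes. A loop in either list was found at the other 44, beside 12508 of all 20046 protein-coding genes. They were POLR2B, POLR2G and POLR2M of RNAPII, MED4, MED10, MED12, MED14, MED16, MED19, MED20, MED21, MED25, MED27, MED29, MED30 and MED31 of Mediator, and TAF1, TAF5, TAF7, TAF9 and TAF12 of TFIID. The remainder were GTF2A1L, GTF2A2, GTF2H2, GTF2H2C, GTF2H3, GTF2H4, GTF2IRD2 and GTF2IRD2B. The last pair, like GTF2H2 and GTF2H2C, are near-identical copies, whose reads may not be assignable to either place. The large structural subunits MED14, which is the Mediator backbone, and TAF1, the largest TFIID subunit, were thus among the genes without a loop, and so was POLR2B, which forms the active site with POLR2A. All 3 genes of the set on chromosome X (MED12, MED14 and TAF1) belonged to this group. The share of all chromosome X genes without a loop was not computed. From the canonical start sites of the 29 genes, the nearest listed anchor lay 3.47 to 401 kb away, with a median of 15.4 kb, and was over 20 kb away for 14 of them. These distances were not compared with those of other genes without a loop. With a window of 2.5 kb around any annotated start site in place of 1 kb, 47 genes had a mock loop in place of 44. That count was not compared with all protein-coding genes at the wider window.

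Of the 150 mock loops, 13 were also in the PDS list (8.67%, interval 5.14 to 14.3%), beside 11.0% of all mock promoter loops. In those 13 loops, PETs summed to 63 in the mock list and 49 in the PDS list: 7 were lower, 3 equal and 3 higher. A further 13 loops were listed after PDS alone, so that 13 of the 26 PDS loops were shared, beside 43.2% of all PDS promoter loops. Loops at the minimum of 3 PETs made up 89 of the 150 mock loops (59.3%), beside 57.9% of all mock promoter loops, and 19 of the 26 PDS loops (73.1%), beside 70.8%. The shared share was larger for loops with more mock PETs, both here and at other promoters. It was 4.49% (4 of 89 loops) at 3 PETs, 12.9% (4 of 31) at 4 PETs and 2 of 8 loops (interval 7.15 to 59.1%) at 7 to 11 PETs. For other promoter loops, the shares in these classes were 5.48%, 11.6% and 38.2%. In each of the 5 PET classes, the interval of the gene set contained the share of other promoter loops. Of the 8 loops with at least 7 mock PETs, the 2 kept were POLR2E to GPX4 and MED22 to STKLD1.

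**Figure D4:**
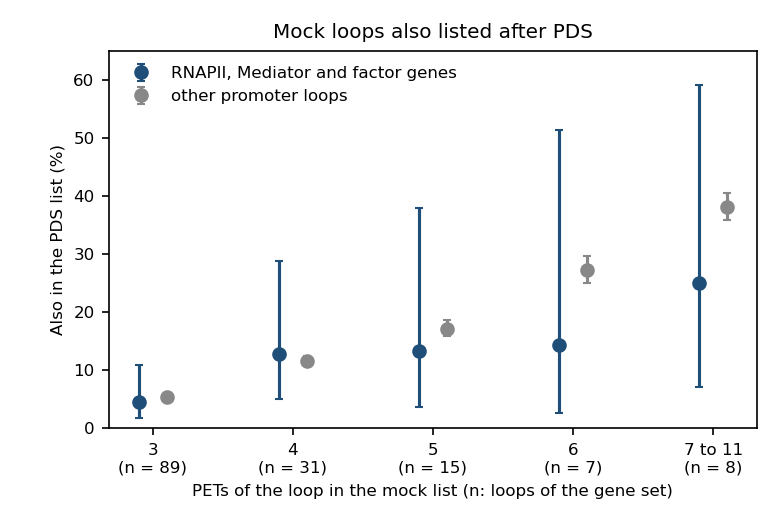
Share of mock loops that were also in the PDS list (vertical axis, %) by their mock PETs (horizontal axis, number of loops of the gene set below), for the gene set and other promoter loops, with 95% Wilson intervals. The shares ran from 4.49% at 3 PETs to 2 of 8 loops at 7 to 11 PETs in the gene set and from 5.48% to 38.2% at other promoters.

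Loops of the 2 conditions spanned like distances. The median distance between anchor midpoints was 19.5 kb in the mock list (quartiles 11.5 and 54.7 kb, range 5.03 to 502 kb) and 17.6 kb in the PDS list (13.1 and 39.2 kb). Other promoter loops had medians of 19.9 and 19.0 kb. Over 100 kb lay 23 of the 150 mock loops (15.3%), beside 14.9% over all pairs of a protein-coding gene and a mock loop at its promoter. In the PDS list 4 of 26 loops were that long (15.4%), beside 13.7% over all such pairs.

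The mock loops divided into 48 that joined promoters of different genes (each anchor held a start site of a gene that the other lacked), 19 others with a start site at both anchors, 35 from a promoter into its own gene and 48 to a site outside with no coding promoter. Loops between promoters of different genes held 197 of the 573 PETs, and 5 of these 48 loops were also in the PDS list. Their share was 32.0% (interval 25.1 to 39.8%), beside 26.2% over all pairs of a protein-coding gene and a mock loop at its promoter. Counted per loop instead, the share over all mock promoter loops was 13.7%, but a loop with a promoter at either end has more chances to enter a set chosen by gene, so the count over pairs is the one to compare. In the PDS list the share was 8 of 26 loops (30.8%, interval 16.5 to 50.0%), beside 23.5% over all pairs. No loop joined a pair of the 73 genes. Of the 44 genes with a loop, 22 shared an anchor with a start site of another protein-coding gene (interval 35.8 to 64.2%), beside 33.7% of all genes with a loop. Loops at such anchors cannot be assigned to the gene alone, and leaving them out kept 32 of the 44 genes with a mock loop.

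**Figure D5:**
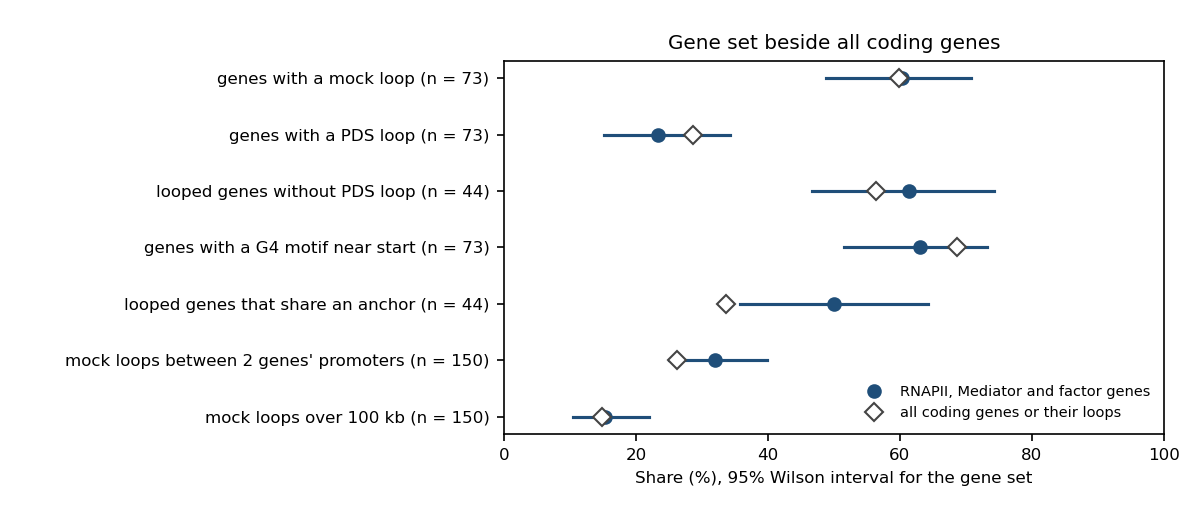
Share (%) of the gene set with each property (filled points, 95% Wilson interval, number of genes or loops in brackets) beside the share of all coding genes or of all pairs of a gene and a promoter loop (diamonds). The 2 shares of genes with a mock loop were 60.3% and 59.8%, and those of genes with a PDS loop 23.3% and 28.7%.

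The PDS/mock comparison of genes with and without a predicted G4 motif did not separate them. A motif is predicted from sequence alone. The study instead sorted loops by G4 sites that the antibody BG4 had detected in HepG2 chromatin, and those sites were not used here. Within 1 kb of the canonical start site, a motif was found at 46 of the 73 genes (63.0%, interval 51.6 to 73.2%), beside 68.6% of all protein-coding genes, and at 29 of the 44 with a mock loop (65.9%), beside 74.6% of all such genes. The 46 genes with a motif had 106 mock and 21 PDS loops, a ratio of 0.198 (0.125 to 0.315). The 27 genes without one had 44 mock and 5 PDS loops, a ratio of 0.114 (0.0464 to 0.278). These loops lay at any annotated start site. With loops at the canonical start site alone, the ratio was 0.174 (0.0951 to 0.318, 69 mock and 12 PDS loops) with a motif. Without one, it was 0.129 (0.0475 to 0.351, 31 mock and 4 PDS loops). When the motif was sought anywhere in the promoter anchor, the order of the ratios turned, with 0.156 (0.0941 to 0.259) for loops with a motif and 0.220 (0.108 to 0.445) for loops without. Over all protein-coding genes, the ratios by the first definition were 0.254 with and 0.256 without a motif.

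RefSeq promoter windows of the length printed above were at hand for 54 of the 73 genes and for 15345 protein-coding genes in all. On either strand, 22 of the 54 windows held CCGGAAG, a motif of the ETS factors (40.7%, and 14.4% of all windows), among them POLR2C, POLR2D, MED15 and MED17. The NRF1 motif (GCGC, any 2 bases, GCGC), bound by a regulator of many housekeeping genes, was in 14 windows (25.9%, and 12.1% of all), including POLR2E, TAF4, GTF2F2 and GTF2H5. The YY1 letters AAGATGGCG were in 7 windows (13.0%, and 2.8% of all): MED1, TAF6, MED18, GTF2E1, MED16, MED25 and TAF5. The GC box GGGCGG, which overlaps G runs of the G4 motif, was in 59.3% of the windows and 59.2% of all. TATAAA was in 4 windows (7.41%, and 9.63% of all), and a G4 motif in 13 (24.1%, and 30.7% of all). The median GC content was 59.3% in these windows and 63.0% in all. The letters GATC, the site of the restriction enzyme MboI that cut the chromatin, were in 17 windows (31.5%, and 39.7% of all). These were 14 of the 31 windows of genes with a mock loop and 3 of the 23 of genes without. The same split was not computed over all genes, and the part of this in which genes had a loop was not tested.

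A list of other genes of the same machinery held 52 symbols for factors such as TBP, the TFIIH kinase and helicases, elongation and pausing factors. Its PDS/mock ratio was close to that of the 73 genes, but more of its genes had a loop. A mock loop was listed at 47 of its 53 gene entries, beside 44 of the 73 genes and 59.8% of all protein-coding genes. POLR2J3 has more than 1 entry, and its loop to POLR2J is also counted among those of the 73 genes. It had 170 mock loops (639 PETs) and 29 PDS loops (96 PETs), a loop ratio of 0.171 (0.115 to 0.252). PETs were lower after PDS at 46 of its 53 gene entries, higher at 1, INTS1 of the Integrator complex (3 and 6 PETs), and at 0 in both lists for 6. ELL2, an elongation factor, had the most PETs, 51 in the mock list and 14 in the PDS list. TBP, the TATA-binding subunit of TFIID, had 12 mock PETs and no PDS loop. CDK9, the kinase that releases paused RNAPII, had 7 mock PETs and no PDS loop.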

How the data were processed

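POLR2A HiChIP-seq was carried out on mock- and PDS-treated HepG2 cells. The authors digested chromatin with MboI, aligned paired-end reads to GRCh38 with HiC-Pro 3.1.0 and deposited 1 loop list per condition in which each loop has a count of PETs, whole and unscaled. The loop caller and the way replicates were combined are not given in the sources used here. Samples were grouped by their treatment label. In a sample of 1000 anchors per list, each began and ended at an MboI site.

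The 73 genes, the gene lists and the motifs were chosen with earlier results of these data known. Start sites came from GENCODE 44, and promoter sequences from RefSeq. Loops were shared when both anchors overlapped by at least 1 bp. Intervals of PDS/mock ratios (95%) were derived from Wilson intervals of the share of PDS in the summed count. Named genes were POLR2A, the 20 genes with the most PETs over both lists, those with a PDS loop of at least 5 PETs or more PETs after PDS, genes without a loop, and genes at the partner anchors. Further genes of the set were named with counts alone after their values were seen. The share of 31-base sequences with a further copy in the genome was computed for each anchor. Counting steps were checked on simulated data. Other PET minimums, windows, start sites, symbols, overlaps, scalings and motif definitions were tried. Python 3.11.15, pandas 2.3.3, scipy 1.17.1, pysam 0.24.0 and matplotlib 3.10.9 were used.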

Additional observations from a re-analysis of the deposited data

How the results depend on the processing

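The loop ratio of the gene set ran from 0.115 to 0.190 over all alternatives tried, each below 1 and each with an interval that overlapped that of the lists as deposited. With a minimum of 4 PETs, the PET ratio was 0.108 and 4 genes had a PDS loop. With a minimum of 5 PETs, the PET ratio was 0.115, the shared share 3.33%, and 16 genes had a mock and 2 a PDS loop. PETs divided by the sum of their list gave a PET ratio of 0.597, and 9 genes at least 2-fold lower, beside 43.5% of all genes. The scaled ratio of other promoter loops was not computed. Unscaled, the PET ratio was 0.157 for the gene set, 0.228 for other promoter loops and 0.263 over all loops, so other promoters also lay below all loops. With at least 20 mock PETs required, 11 of 11 genes were at least 2-fold lower. The share of all genes was not computed at that limit, and it was 92.7% with at least 10 mock PETs. Counting the canonical start site alone left 10 genes with a PDS loop, and leaving out chromosomes 2, 6, 14, 16, 17 and 20 left 28 genes with a mock and 11 with a PDS loop. Extending anchors by 5 kb raised the shared share to 28.7%. Chosen after the data had been seen, leaving out loops with an anchor in which over 20% of 31-base sequences have a further copy left 8 genes with a PDS loop, and leaving out TAF4 or the POLR2L anchor moved none of the values by more than its counting error. The other results stayed within counting error, or within 1.5 times for counts of genes. Counts of genes with a loop at these settings were not compared with those of all protein-coding genes. No paired analysis was possible because the replicates were combined into 1 list per condition, and leaving out replicates in turn was not run for the same reason. Single loops rest on few PETs: 59.3% of the mock loops and 73.1% of the PDS loops of these genes had 3 PETs.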
